A study of Homo sapiens with 12 samples.

Results

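The respiratory chain and the ATP synthase were followed here through the transcripts of their nuclear-encoded subunits in HK-2 cells exposed to Kbr. Members were taken by gene symbol: every gene whose symbol begins with NDUFA, NDUFB, NDUFC, NDUFS, NDUFV, UQCR, ATP5 or COX4 to COX8, together with CYC1 and the SDH subunits, and whose value exceeded 4 on the log2 scale in at least 3 arrays. Of 91 genes that matched, 73 were members, out of 10574 genes tested on the arrays. The other matches were 8 NDUFAF assembly factors and 2 pseudogenes, which the rule leaves out, 3 antisense or divergent RNAs, and 5 genes that did not pass the level (ATP5MF, COX6B2, COX7A1, COX7B2 and COX8C). The members comprised 33 subunits of complex I, 3 of complex II, 7 of complex III, 13 of complex IV and 17 of complex V, the ATP synthase. Beyond symbols, the rule used only that level and the mean that picked the probe set of each gene. All 73 exceeded the level in each of the 12 arrays. The members were chosen with earlier results of these data known. A further 11 genes of these names had no probe set of their own, 7 of them because they share one with another gene, so that NDUFS5, NDUFS8, NDUFC2, SDHB, UQCRFS1 and UQCRH are among the subunits not analysed here.

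The respiratory chain passes electrons from NADH through complex I, or from succinate through complex II, to ubiquinone, then through complex III and cytochrome c to complex IV and oxygen. Complexes I, III and IV pump protons across the inner mitochondrial membrane, and complex V uses their return to make ATP. Most subunits are encoded in the nucleus and imported, while the mitochondrial genome encodes core membrane subunits of complexes I, III, IV and V, and none of complex II. In the kidney the proximal tubule depends on this pathway for the energy of solute transport.

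HK-2 is a single immortalised line derived from human renal proximal tubule epithelium. Cultures received Kbr, named only so in the labels and at a dose given only as high, or the control vehicle, and RNA was taken at 24 h or at 48 h. Each of the 4 groups, Kbr and control cultures at 24 h and at 48 h, had 3 biological replicates. The submitters' stated purpose was to find expression signatures of nephrotoxicity. Values are log2 GCRMA values, a background-corrected and normalized array summary per probe set, and each gene is represented by its probe set with the highest mean. A gene is called higher or lower when limma's moderated test gave a Benjamini-Hochberg adjusted p under 0.05 over all 10574 genes.

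Facts about the arrays that touch the values below are as follows. The epithelial markers KRT8, KRT18, KRT19, EPCAM and CDH1 exceeded the level, as did 5 of 13 measured proximal tubule markers (SLC3A1, GATM, MIOX, CDH6 and PAX8), whereas AQP1, SLC34A1, SLC5A2, CUBN and LRP2 did not. Of markers of other cells, 0 of 3 measured leukocyte genes, 0 of 4 muscle genes, 1 of 5 endothelial genes (TEK) and 3 of 6 fibroblast genes (COL1A1, DCN and LUM) exceeded it. The summed linear values of those 3 fibroblast genes were 2714 to 3634 in Kbr 24 h arrays and 5263 to 7511 in control 24 h arrays, and 1138 to 1533 in Kbr 48 h arrays and 4943 to 5167 in control 48 h arrays. The 5 proximal tubule markers summed to 5676 to 7020 in Kbr 24 h and 8700 to 11033 in control 24 h arrays, and to 4020 to 4301 in Kbr 48 h and 8965 to 11282 in control 48 h arrays. The epithelial markers summed to 18578 to 21659 in Kbr 24 h and 25199 to 29850 in control 24 h arrays, and to 17809 to 20020 in Kbr 48 h and 22746 to 28120 in control 48 h arrays. The array of Kbr 48 h replicate 3 lay farthest from the mean of its group, by 0.290 (root mean square over all genes), whereas the rest lay at 0.164 to 0.228. For 18S ribosomal RNA the arrays averaged 8.14 ± 0.28 in Kbr 24 h and 7.64 ± 0.11 in control 24 h arrays, and 8.58 ± 0.24 in Kbr 48 h and 8.07 ± 0.20 in control 48 h arrays (SD, n = 3 each). The mean of all tested genes also lay lower in Kbr arrays, by 0.13 at 24 h and by 0.18 at 48 h against control 24 h arrays, so that shifts of the members are given beside it. The part of these features in the results was not tested.

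Subunit transcripts were mostly a little lower in Kbr than in control cultures at 24 h and more of them were called lower at 48 h. At 24 h, 13 of 73 members were called lower, or 17.8%, against 20.0% of all genes, and 1 (NDUFAB1) was called higher, against 12.4% of all genes. At 48 h, 37 members were called lower, or 50.7%, against 32.8% of all genes, and 4 (NDUFAB1, NDUFA8, NDUFB9 and NDUFV3) were called higher, against 26.9%. The share of members called lower at 24 h was therefore near that of all genes. The median log2 fold change of the members was -0.16 at 24 h and -0.28 at 48 h, against -0.06 for all tested genes at both times. The estimate was below 0 for 65 of 73 members at 24 h, or 89.0%, against 55.7% of all genes, and for 62 members at 48 h, or 84.9%, against 53.2%. In RNA of whole cultures, a lower share of these transcripts in each cell and a change in which cells remain cannot be told apart.

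The changes were small at 24 h and larger at 48 h. None of the 13 members called lower at 24 h fell by a factor of 2 or more, whereas 6.02% of all genes did. By their highest-mean probe sets, 7 members were called lower by at least 2-fold at 48 h, against 15.5% of all genes. They were NDUFS7, NDUFA7, NDUFB1 and NDUFV1 of complex I and ATP5MC1, ATP5MC2 and ATP5F1D of complex V. Another probe set of ATP5F1D gave -0.42 at 48 h and was not called. The 3 Kbr arrays lay below the 3 control arrays without overlap for 34 members at 24 h, against 29.2% of all genes, and for 39 members at 48 h, against 34.2%. They lay above without overlap for 2 members at 24 h, against 22.4% of all genes, and for 6 at 48 h, against 28.6%. The replicate numbers pair the arrays, and a fit with the number as a block called 25 members lower at 24 h, against 29.4% of all genes. At 48 h it called 44 lower, against 38.1% of all genes, and 7 higher, against 31.3%. The 12 members that it added at 24 h were ATP5F1A, ATP5F1D, ATP5PD, NDUFA2, NDUFA5, NDUFA6, NDUFA9, NDUFA11, NDUFB2, NDUFB3, NDUFV1 and UQCRC1, and the 3 that it added as higher at 48 h were COX4I2, NDUFA12 and NDUFB6. The 7 that it added as lower at 48 h were ATP5MG (limma adjusted p = 0.0468 with the block), ATP5PB (0.0337), COX6A2 (0.0322), CYC1 (0.0492), NDUFB7 (0.0212), NDUFS3 (0.0456) and NDUFS4 (0.0375).

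**Figure D1:**
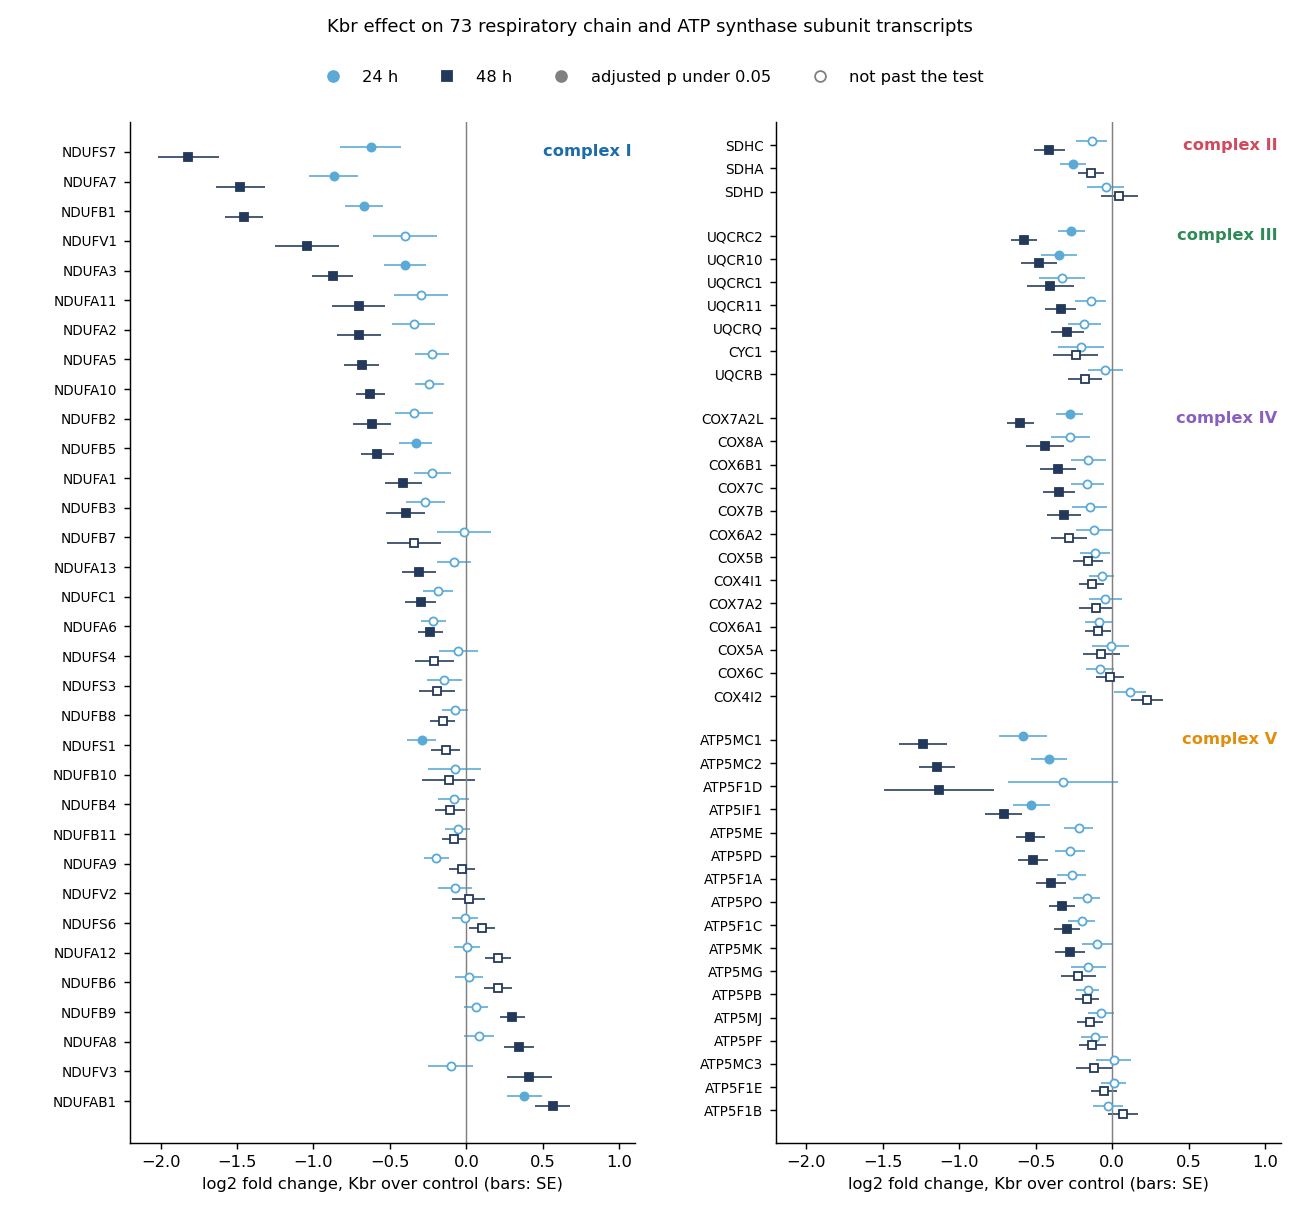
Log2 fold change of Kbr over control for each of the 73 members, with complex I on the left and complexes II to V on the right. Circles stand for 24 h and squares for 48 h, bars show the SE, and filled symbols passed an adjusted p of 0.05. The squares of NDUFS7, NDUFA7, NDUFB1, NDUFV1, ATP5MC1, ATP5MC2 and ATP5F1D lie beyond -1, and NDUFAB1 lies farthest to the right at both times.

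Complex I, the NADH dehydrogenase, held the members with the largest falls as well as the 4 that were called higher at 48 h. Of its 33 members, 6 were called lower and 1 higher at 24 h, against 20.0% and 12.4% of all genes. At 48 h 16 were called lower and 4 higher, against 32.8% and 26.9% of all genes. The lower share at 24 h was thus near that of all genes. The median log2 fold change of the 33 members was -0.19 at 24 h and -0.24 at 48 h, and single members ranged from -1.82 to 0.56 at 48 h. NDUFS7, which carries the iron-sulphur cluster that hands electrons to ubiquinone, read 8.65, 8.60 and 8.84 in Kbr 24 h arrays and 9.46, 9.21 and 9.29 in control 24 h arrays. It read 7.38, 7.22 and 7.91 in Kbr 48 h arrays and 9.62, 8.94 and 9.42 in control 48 h arrays. All Kbr arrays lay below all control arrays of the same time, and the Kbr 48 h arrays lay lowest. The log2 fold change was -0.63 ± 0.20 at 24 h (SE, limma adjusted p = 0.0342) and -1.82 ± 0.20 at 48 h (adjusted p = 2.38e-05), where the level was 3.53-fold lower. The call at 24 h was lost when any 1 of the 6 arrays of that time was left out, with adjusted p between 0.0517 and 0.113.

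NDUFA7 and NDUFB1, accessory subunits of the peripheral and the membrane arm, fell in the same way. NDUFA7 read 9.18, 9.30 and 9.39 in Kbr 24 h against 10.19, 10.19 and 10.09 in control 24 h arrays, and 8.37, 8.75 and 9.11 in Kbr 48 h against 10.11, 10.24 and 10.31 in control 48 h arrays. Its log2 fold change was -0.87 ± 0.16 at 24 h (SE, limma adjusted p = 0.00239) and -1.48 ± 0.16 at 48 h (adjusted p = 1.99e-05). NDUFB1 read 11.96, 11.90 and 11.96 in Kbr 24 h against 12.64, 12.67 and 12.51 in control 24 h arrays, and 11.05, 11.14 and 11.57 in Kbr 48 h against 12.69, 12.69 and 12.74 in control 48 h arrays. Neither gene had an overlap between Kbr and control arrays at either time, and the 48 h Kbr arrays of NDUFB1 all lay below its 24 h Kbr arrays. The log2 fold change of NDUFB1 was -0.67 ± 0.12 at 24 h (adjusted p = 0.00269) and -1.45 ± 0.12 at 48 h (adjusted p = 4.94e-06), a 2.74-fold lower level at 48 h. Both calls of both genes held when each array was left out in turn.

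Other complex I members called lower at 48 h included NDUFV1, the subunit that binds NADH and the flavin, and NDUFA3, NDUFA11, NDUFA2, NDUFA5 and NDUFA10, accessory subunits. NDUFV1 averaged 9.93 ± 0.30 in Kbr 48 h and 10.97 ± 0.32 in control 48 h arrays (SD, n = 3 each), with no overlap between them. Its log2 fold change was -1.04 ± 0.21 (SE, limma adjusted p = 0.00139), and at 24 h it was -0.40 ± 0.21 (adjusted p = 0.163, or 0.0047 with the replicate block). NDUFA3 fell at both times, by 0.40 ± 0.13 at 24 h and by 0.87 ± 0.13 at 48 h. NDUFA5 read 11.27, 11.17 and 11.00 in Kbr 24 h against 11.52, 11.28 and 11.31 in control 24 h arrays, and 11.21, 10.95 and 10.93 in Kbr 48 h against 11.75, 11.75 and 11.65 in control 48 h arrays. Its groups did not overlap at either time, although at 24 h the highest Kbr and the lowest control array nearly met. It was called only at 48 h, at -0.69 ± 0.11 (adjusted p = 0.000358). NDUFS1, the largest iron-sulphur subunit, was called lower at 24 h, at -0.29 ± 0.10 (adjusted p = 0.0385), and not at 48 h, at -0.14 ± 0.10 (adjusted p = 0.246). The change between its effects was 0.16 ± 0.14 (adjusted p = 0.533), so a difference between the times was not detected for this gene. Of its 4 probe sets, 2 others were called lower at 48 h, at -0.82 and -0.71 (adjusted p = 0.000274 and 0.00616 among all probe sets).

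NDUFAB1, the mitochondrial acyl carrier protein that also serves fatty acid and lipoic acid synthesis, was the only member called higher at both times. It read 11.94, 11.87 and 11.82 in Kbr 24 h against 11.63, 11.32 and 11.55 in control 24 h arrays, and 12.08, 12.11 and 12.27 in Kbr 48 h against 11.73, 11.41 and 11.63 in control 48 h arrays. The Kbr arrays lay above the control arrays at each time without overlap. Its log2 fold change was 0.38 ± 0.11 at 24 h (SE, limma adjusted p = 0.027) and 0.56 ± 0.11 at 48 h (adjusted p = 0.00143). Without 1 of 4 arrays in turn the 24 h call was lost, whereas the 48 h call held in every such fit. NDUFA8 and NDUFB9, accessory subunits of the membrane arm, were called higher at 48 h, at 0.34 ± 0.10 (adjusted p = 0.0112) and 0.30 ± 0.08 (adjusted p = 0.00688). NDUFV3, an accessory subunit beside the flavin site, read 8.96, 8.67 and 8.33 in Kbr 48 h arrays and 8.30, 8.06 and 8.36 in control 48 h arrays, so its groups overlapped although it was called (0.41 ± 0.15, adjusted p = 0.0323). Another probe set of NDUFV3 gave 0.10 at 48 h and was not called (limma adjusted p = 0.405 among all probe sets).

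By position in the complex, the 14 subunits placed in the peripheral arm, which holds the flavin and the iron-sulphur clusters, had a median of -0.21 at 24 h and -0.20 at 48 h. The 18 subunits of the membrane arm had medians of -0.14 and -0.33. NDUFAB1 was counted in neither arm. In the peripheral arm 3 were called lower at 24 h, and 6 lower and 1 higher at 48 h. In the membrane arm 3 were called lower at 24 h, and 10 lower and 2 higher at 48 h. Of all genes 20.0% were called lower at 24 h, and 32.8% lower and 26.9% higher at 48 h. The counts by arm are descriptions, and the difference between the arms was not tested.

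**Figure D2:**
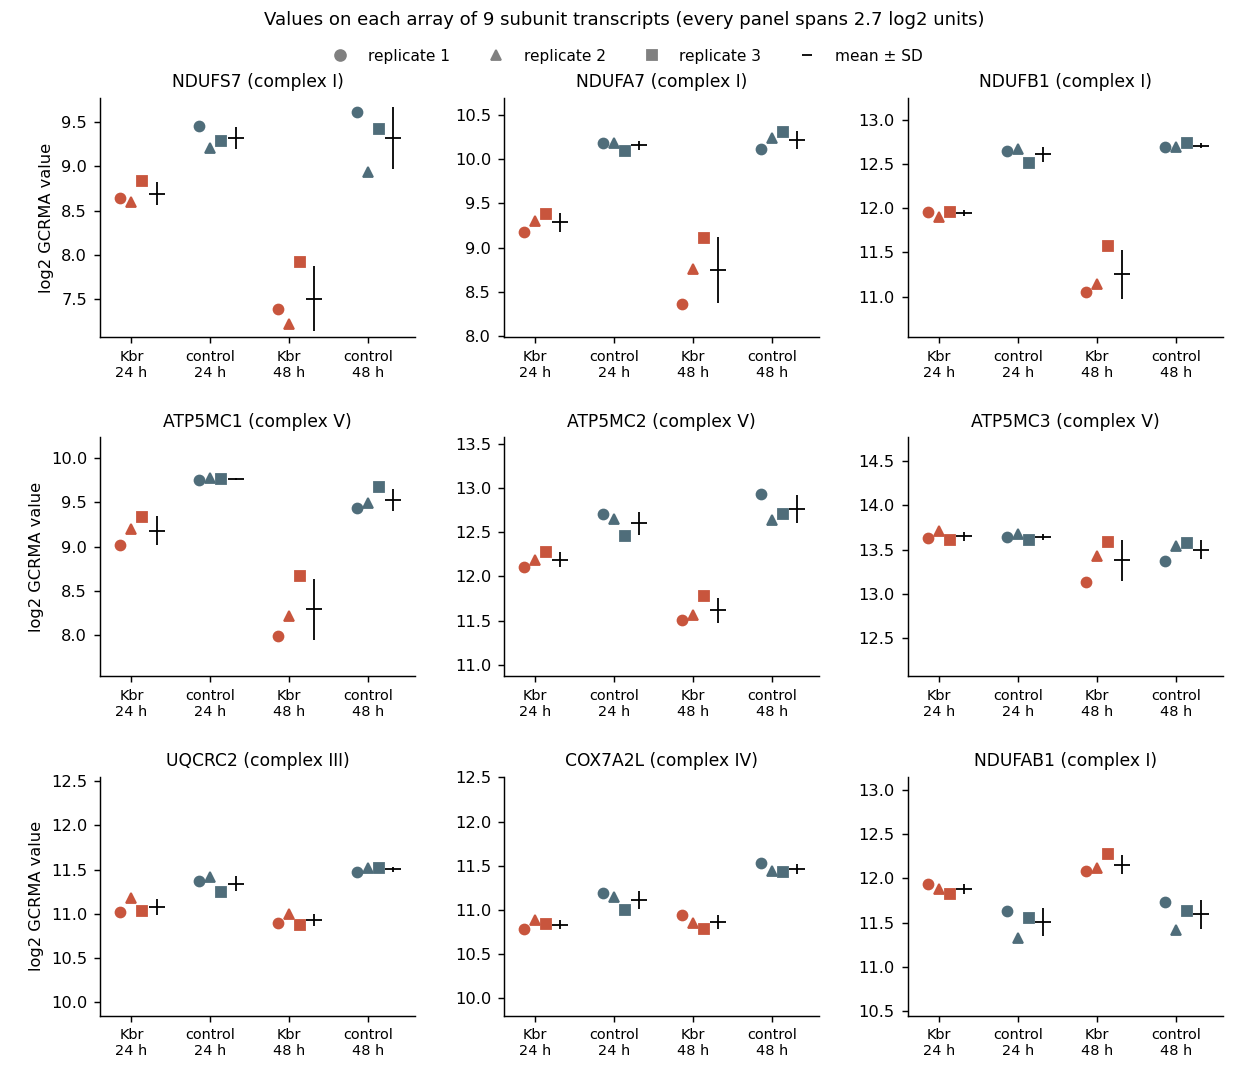
Log2 GCRMA value on each array for 9 members, with Kbr to the left of control at each time. Symbols mark the replicate number and the bars the mean ± SD. In NDUFS7, NDUFA7, NDUFB1, ATP5MC1 and ATP5MC2 the Kbr arrays lie below the control arrays at both times, ATP5MC3 shows overlapping groups, and in NDUFAB1 the Kbr arrays lie above.

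Complex II, succinate dehydrogenase, was represented by 3 members only, of which 1 was called lower at each time, a different one at 24 h and at 48 h. Of all genes 20.0% were called lower at 24 h and 32.8% at 48 h. SDHA, the flavoprotein subunit that oxidises succinate, read 10.71, 10.82 and 10.63 in Kbr 24 h arrays against 10.95, 11.07 and 10.90 in control 24 h arrays. These groups did not overlap, and the fall of 0.26 ± 0.09 was called (SE, limma adjusted p = 0.0404). At 48 h SDHA differed by -0.14 ± 0.09 (adjusted p = 0.186). SDHC, a membrane anchor, showed the other pattern, with -0.14 ± 0.10 at 24 h (adjusted p = 0.337) and a called fall of 0.41 ± 0.10 at 48 h (adjusted p = 0.00517). It read 10.90, 11.00 and 11.13 in Kbr 48 h arrays, below 11.26, 11.54 and 11.46 in control 48 h arrays. SDHD, the other anchor, read 11.75, 11.76 and 11.47 in Kbr 24 h against 11.72, 11.76 and 11.63 in control 24 h arrays, and 11.69, 11.78 and 11.69 in Kbr 48 h against 11.42, 11.81 and 11.79 in control 48 h arrays. Its groups overlapped at both times, and it was not called, with -0.04 ± 0.12 and 0.05 ± 0.12. The SDHA call at 24 h was lost in 7 of 12 fits that left out 1 array, with adjusted p up to 0.135, whereas the SDHC call at 48 h held in all 12.

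In complex III, which passes electrons from ubiquinol to cytochrome c, all 7 members had estimates below 0 at both times by their highest-mean probe sets. Another probe set of UQCRB was called higher at 24 h, at 0.47, and another of UQCR11 at 48 h, at 0.73. Of the 7 members, 2 were called lower at 24 h (UQCR10 and UQCRC2), against 20.0% of all genes. At 48 h 5 were called lower (UQCRC2, UQCR10, UQCRC1, UQCR11 and UQCRQ), against 32.8% of all genes. The median of the 7 members was -0.21 at 24 h and -0.34 at 48 h. UQCRC2, a core subunit, read 11.02, 11.18 and 11.03 in Kbr 24 h against 11.37, 11.42 and 11.25 in control 24 h arrays, and 10.90, 11.00 and 10.88 in Kbr 48 h against 11.47, 11.52 and 11.52 in control 48 h arrays. No Kbr array reached a control array of its time. Its log2 fold change was -0.27 ± 0.09 at 24 h (SE, limma adjusted p = 0.0373) and -0.58 ± 0.09 at 48 h (adjusted p = 0.000204).

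UQCR10, a small subunit of the same complex, read 12.30, 12.43 and 12.47 in Kbr 24 h against 12.71, 12.85 and 12.69 in control 24 h arrays, and 11.92, 12.21 and 12.39 in Kbr 48 h against 12.65, 12.61 and 12.69 in control 48 h arrays. It fell by 0.35 ± 0.12 at 24 h (adjusted p = 0.0419) and by 0.48 ± 0.12 at 48 h (adjusted p = 0.00452). UQCRC1, the other core subunit, was called at 48 h at -0.40 ± 0.15 (adjusted p = 0.0398), although its Kbr 48 h arrays (11.46, 11.36 and 11.72) overlapped its control 48 h arrays (12.08, 11.62 and 12.05). The 24 h calls of UQCR10 and UQCRC2 were lost in 10 and 4 of 12 fits that left out 1 array, and the 48 h call of UQCRC1 in 6. CYC1, the cytochrome c1 that carries the haem of the outgoing electron, was not called, with -0.21 ± 0.15 at 24 h and -0.24 ± 0.15 at 48 h (limma adjusted p = 0.0492 with the block at 48 h).

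Complex IV, cytochrome c oxidase, shifted little. Of its 13 members 1 was called lower at 24 h, against 20.0% of all genes, and 5 at 48 h, against 32.8%. The median of the 13 members was -0.11 at 24 h and -0.16 at 48 h. COX7A2L, which takes part in joining complexes III and IV into supercomplexes, read 10.78, 10.89 and 10.84 in Kbr 24 h against 11.19, 11.15 and 11.00 in control 24 h arrays, and 10.95, 10.85 and 10.79 in Kbr 48 h against 11.53, 11.44 and 11.42 in control 48 h arrays. Its Kbr values were alike at both times, and its control values were higher at 48 h. The log2 fold change was -0.28 ± 0.09 at 24 h (SE, limma adjusted p = 0.0335) and -0.60 ± 0.09 at 48 h (adjusted p = 0.000162). The 24 h call was lost in 5 of 12 fits that left out 1 array.

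The other complex IV members called at 48 h were the small structural subunits COX8A, COX6B1, COX7C and COX7B. COX8A read 11.92, 12.16 and 12.43 in Kbr 48 h arrays and 12.63, 12.49 and 12.71 in control 48 h arrays, and fell by 0.44 ± 0.13 (adjusted p = 0.0111). COX6B1 read 12.52, 12.71 and 12.97 in Kbr 48 h arrays and 13.02, 13.11 and 13.13 in control 48 h arrays, and COX7C read 13.72, 13.90 and 13.83 in Kbr 48 h arrays and 14.12, 14.29 and 14.09 in control 48 h arrays. COX6B1 fell by 0.36 ± 0.12 (adjusted p = 0.0211), COX7C by 0.35 ± 0.11 (adjusted p = 0.0149) and COX7B by 0.32 ± 0.11 (adjusted p = 0.032). None of COX4I1, COX5A, COX5B, COX6A1, COX6C and COX7A2 was called at either time, with log2 fold changes between -0.16 and -0.01. COX4I2, an isoform known for oxygen-dependent regulation, had the only positive estimates of the complex by the highest-mean probe sets, 0.12 ± 0.11 at 24 h and 0.23 ± 0.11 at 48 h. It was not called (limma adjusted p = 0.423 and 0.082, the second 0.0488 with the replicate block). Its values of 5.31 to 5.83 lay near the level of 4, as did those of COX6A2, at 4.47 to 5.03.

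Complex V, the ATP synthase, had 3 of 17 members called lower at 24 h, against 20.0% of all genes, and 10 at 48 h, against 32.8%. None was called higher, against 12.4% of all genes at 24 h and 26.9% at 48 h. The median of complex V was -0.17 at 24 h and -0.30 at 48 h, and 16 of 17 estimates were below 0 at 48 h. The membrane ring that turns during ATP synthesis is built of c subunits, and 3 genes, ATP5MC1, ATP5MC2 and ATP5MC3, encode the same mature c subunit with different import sequences. The first 2 of these fell at both times, and the third was not called.

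ATP5MC1 read 9.02, 9.20 and 9.33 in Kbr 24 h against 9.76, 9.78 and 9.76 in control 24 h arrays, and 7.99, 8.22 and 8.67 in Kbr 48 h against 9.43, 9.49 and 9.67 in control 48 h arrays. Its log2 fold change was -0.58 ± 0.16 at 24 h (SE, limma adjusted p = 0.0163) and -1.24 ± 0.16 at 48 h (adjusted p = 6.05e-05), a 2.36-fold lower level at 48 h. No Kbr value reached a control value of its time. ATP5MC2 read 12.11, 12.19 and 12.27 in Kbr 24 h against 12.70, 12.65 and 12.46 in control 24 h arrays, and 11.50, 11.56 and 11.78 in Kbr 48 h against 12.94, 12.64 and 12.71 in control 48 h arrays. It changed by -0.41 ± 0.12 at 24 h (adjusted p = 0.0192) and by -1.15 ± 0.12 at 48 h (adjusted p = 1.35e-05). Here too every Kbr array lay below every control array of its time. ATP5MC3 read 13.63, 13.71 and 13.61 in Kbr 24 h against 13.64, 13.68 and 13.61 in control 24 h arrays, and 13.13, 13.43 and 13.58 in Kbr 48 h against 13.38, 13.55 and 13.57 in control 48 h arrays. These groups overlapped at both times, and its log2 fold change was 0.01 ± 0.12 and -0.12 ± 0.12 (adjusted p = 0.967 and 0.395). Another probe set of ATP5MC3 was called lower at 48 h, at -0.84 (adjusted p = 7.89e-05 among all probe sets). The 24 h call of ATP5MC1 was lost without Kbr 24 h replicate 1 (adjusted p = 0.063), and that of ATP5MC2 in 4 of 12 fits that left out 1 array.

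ATP5IF1, the inhibitor that stops the enzyme from hydrolysing ATP, read 10.91, 11.14 and 11.20 in Kbr 24 h against 11.46, 11.77 and 11.60 in control 24 h arrays, and 10.72, 10.86 and 10.95 in Kbr 48 h against 11.39, 11.65 and 11.62 in control 48 h arrays. It fell by 0.53 ± 0.12 at 24 h (SE, limma adjusted p = 0.00776) and by 0.71 ± 0.12 at 48 h (adjusted p = 0.000484), with no overlap between groups. Another probe set of this gene gave 0.16 at 48 h (adjusted p = 0.479 among all probe sets).

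Among the subunits of the catalytic head and central stalk, ATP5F1D, the delta subunit, varied most between replicates. It read 9.63, 8.73 and 9.42 in Kbr 24 h against 10.08, 8.97 and 9.71 in control 24 h arrays, and 8.44, 7.70 and 8.63 in Kbr 48 h against 9.79, 8.83 and 9.54 in control 48 h arrays. Replicate 2 was the lowest in all 4 groups, and each Kbr array lay below the control array of the same number. The log2 fold change was -0.32 ± 0.36 at 24 h (adjusted p = 0.526, or 0.0295 with the replicate block) and -1.13 ± 0.36 at 48 h (adjusted p = 0.019). That 48 h call was lost without Kbr 48 h replicate 2, control 48 h replicate 1 or control 48 h replicate 3, at adjusted p between 0.0559 and 0.0801. Another probe set of ATP5F1D was not called at 48 h, at -0.42 (limma adjusted p = 0.132 among all probe sets).

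ATP5F1A and ATP5F1C, the alpha and gamma subunits, were called lower at 48 h at -0.40 ± 0.10 and -0.30 ± 0.09. ATP5F1B, the catalytic beta subunit, was not called and averaged 13.02 ± 0.04 in Kbr 48 h and 12.95 ± 0.15 in control 48 h arrays (SD, n = 3 each). Of the 4 subunits of the peripheral stalk, ATP5PD and ATP5PO were called lower at 48 h, at -0.52 ± 0.10 and -0.33 ± 0.09, and ATP5PB and ATP5PF were not, at -0.17 ± 0.08 and -0.13 ± 0.09 (ATP5PB had a limma adjusted p of 0.0337 with the block). Of the other membrane subunits ATP5ME and ATP5MK were called lower at 48 h, at -0.54 ± 0.10 and -0.28 ± 0.10, and ATP5MG and ATP5MJ were not (ATP5MG had a limma adjusted p of 0.0468 with the block). Another probe set of ATP5MG was called lower at 48 h, at -0.82 (adjusted p = 0.000189 among all probe sets).

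Set side by side with the highest-mean probe set per gene, complexes I, III and V had the larger mean shifts and complexes II and IV the smaller ones. This order depended on the choice of probe set. Medians with other choices, given in the last section, showed larger falls for complex II and smaller ones for complex V. With each probe set on its own, SDHC supplied 6 values of complex II, and SDHA and SDHD 1 each. Falls also differed by signal level. By control 48 h level, the 48 h median was -0.71 for 6 members below 10 and -0.34 for 27 at 10 to 12. It was -0.27 for 18 members at 12 to 13 and -0.20 for 22 at 13 or above. The part of level in the order of the complexes was not tested. The mean deviation of complex V transcripts from the control 24 h mean was -0.17 to -0.24 in Kbr 24 h arrays against -0.03 to 0.04 in control 24 h arrays, and -0.34 to -0.57 in Kbr 48 h arrays against -0.10 to -0.01 in control 48 h arrays. For complex III the ranges were -0.19 to -0.24 in Kbr 24 h against -0.05 to 0.04 in control 24 h arrays, and -0.30 to -0.54 in Kbr 48 h against -0.15 to -0.02 in control 48 h arrays. For complex I they were -0.18 to -0.21 in Kbr 24 h against -0.05 to 0.03 in control 24 h arrays, and -0.23 to -0.46 in Kbr 48 h against -0.08 to 0.02 in control 48 h arrays. In these 3 complexes the Kbr arrays lay below the control arrays at both times, as they did for complex IV and for all tested genes.

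Complex IV lay at -0.08 to -0.13 in Kbr 24 h against -0.06 to 0.04 in control 24 h arrays, and at -0.09 to -0.26 in Kbr 48 h against -0.01 to 0.05 in control 48 h arrays. All tested genes together lay at -0.09 to -0.15 in Kbr 24 h against -0.04 to 0.05 in control 24 h arrays, and at -0.13 to -0.21 in Kbr 48 h against -0.06 to -0.00 in control 48 h arrays. Measured from control 24 h arrays, the mean shift of complex IV was thus close to that of all genes. Measured as Kbr against control at the same time, its median was -0.11 at 24 h and -0.16 at 48 h, against -0.06 for all genes at both times, and 12 of 13 estimates were below 0 at each time. The mean shifts of complexes I, III and V at 48 h exceeded that of all genes on each Kbr array, though for complex I on replicate 3 only by -0.23 against -0.21. Complex II lay at -0.16 to -0.24 in Kbr 48 h arrays and overlapped with control 48 h arrays, at -0.18 to 0.08. Over 12 arrays the means of complexes I, III, IV and V correlated with each other at 0.91 to 0.99, and at 0.81 to 0.96 once group means were removed. The corresponding values for complex II were 0.65 to 0.74 and -0.06 to 0.34. These correlations share the arrays, and complex II rests on few genes. Differences between complexes were not tested.

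**Figure D3:**
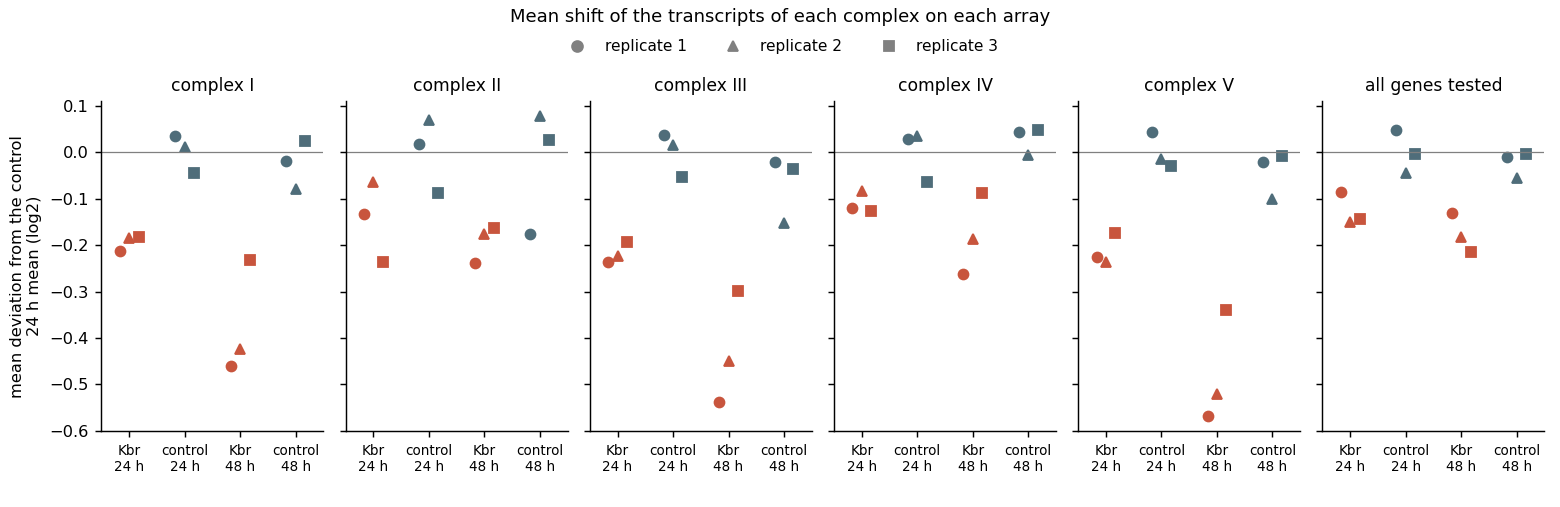
Mean log2 deviation of the transcripts of each complex from the control 24 h mean on each of the 12 arrays, with all tested genes on the right. Each symbol is an array and its shape the replicate number. Complexes I, III and V lie lowest in Kbr 48 h arrays, and in those panels Kbr 48 h replicate 3 lies above the other Kbr 48 h arrays.

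The Kbr effect itself was compared between the times by an interaction term. It was called for 3 members, all with a larger fall at 48 h, against 3.49% of all genes, and for 0 in the other direction, against 2.09%. At an unadjusted p under 0.05 there were 12 members, or 16.4%, against 24.4% of all genes. The change was -1.19 ± 0.28 for NDUFS7 (SE, limma adjusted p = 0.0388), -0.79 ± 0.18 for NDUFB1 (adjusted p = 0.0323) and -0.73 ± 0.16 for ATP5MC2 (adjusted p = 0.0317). With the replicate block it was called for 9 members, against 11.4% of all genes, adding NDUFA7, NDUFA5, NDUFV1, ATP5MC1, ATP5F1D and UQCRC2. Of the 73 estimates 58 were below 0, or 79.5%, against 48.9% of all genes. Leaving out any 1 of 8 arrays ended all 3 calls, and without Kbr 48 h replicate 3 there were 7 lower calls and 1 higher, against 6.52% and 7.74% of all genes.

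Kbr cultures at 48 h were lower than Kbr cultures at 24 h for 7 members, against 10.0% of all genes, and higher for 0, against 7.12% (20 members, or 27.4%, at an unadjusted limma p under 0.05, against 32.6% of all genes). These were NDUFS7 (-1.19), ATP5MC1 (-0.89), NDUFB1 (-0.69), ATP5MC2 (-0.57), NDUFA7 (-0.54), ATP5ME (-0.34) and ATP5PD (-0.33). The block gave 15 lower, against 19.6% of all genes, and 2 higher, against 14.2%. Without Kbr 48 h replicate 3 the count was 21 lower and 1 higher, against 13.3% and 13.7% of all genes.

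In control cultures, 0 members were called higher at 48 h than at 24 h, against 1.73% of all genes, and 0 lower, against 2.3%, with 5 members, or 6.85%, at an unadjusted limma p under 0.05, against 21.9% of all genes. The largest differences were 0.35 ± 0.09 for COX7A2L (SE, adjusted p = 0.0517), 0.35 ± 0.11 for NDUFA5 (adjusted p = 0.108) and -0.30 ± 0.15 for UQCRC1 (adjusted p = 0.292). COX7A2L and NDUFA5 lay higher in every control 48 h array than in every control 24 h array. With the block these 3 genes and NDUFA9, NDUFB5 and NDUFS6 were called, at adjusted p between 0.0112 and 0.0475, against 8.62% of all genes higher and 12.2% lower. In Kbr cultures COX7A2L differed by 0.03 and NDUFA5 by -0.11 between the times.

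Other genes of the pathway moved in both directions. The mitochondrial genome's own subunits, of which 7 of 13 had a probe set, were not called at 24 h (1 at an unadjusted limma p under 0.05), and at 48 h 1 was called higher and 0 lower. That gene was ND6, a membrane subunit of complex I, which read 10.49, 10.41 and 10.57 in Kbr 48 h arrays and 9.74, 10.08 and 9.87 in control 48 h arrays (0.59 ± 0.15, adjusted p = 0.00519). The median of the 7 was 0.02 at 24 h and 0.10 at 48 h. Of 51 assembly factors tested out of 54 listed, 6 were higher and 12 lower at 24 h, and 20 higher and 15 lower at 48 h. Of all genes 12.4% were called higher and 20.0% lower at 24 h, and 26.9% higher and 32.8% lower at 48 h.

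The assembly factors with the largest falls were DMAC2L, a factor associated with the ATP synthase, SURF1 and PET100, which serve complex IV. DMAC2L read 8.97, 8.93 and 9.02 in Kbr 24 h against 10.13, 10.20 and 10.14 in control 24 h arrays, and 8.41, 8.51 and 8.44 in Kbr 48 h against 10.45, 10.81 and 10.63 in control 48 h arrays. Its groups were far apart, at -1.18 ± 0.10 at 24 h (SE, limma adjusted p = 5.49e-05) and -2.18 ± 0.10 at 48 h (adjusted p = 3.09e-07). SURF1 changed by -0.78 ± 0.14 at 24 h and by -1.61 ± 0.14 at 48 h, and PET100 by -1.47 at 48 h. NDUFAF5 and TMEM70, which help to build complex I and the ATP synthase, were higher at 48 h, at 1.16 and 1.12.

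Of 15 genes for electron carriers and ubiquinone synthesis, 2 were higher and 6 lower at 24 h, against 12.4% and 20.0% of all genes. At 48 h 3 were higher and 6 lower, against 26.9% and 32.8% of all genes. COQ2, COQ6 and COQ9, all needed to make ubiquinone, changed by -1.24, -1.04 and -1.23 at 48 h, and ETFB, which brings in electrons from fatty acid oxidation, by -1.19. CYCS, which encodes cytochrome c itself, was called higher, at 0.31 at 24 h and 0.61 at 48 h. Of 15 regulators tested out of 16, 6 were higher and 2 lower at 24 h, and 10 higher and 3 lower at 48 h, beside the same shares of all genes. PPARGC1A, a coactivator of mitochondrial gene programmes, fell by 1.49 ± 0.31 at 24 h and by 1.69 ± 0.31 at 48 h. TFAM, which packages and transcribes mitochondrial DNA, rose by 1.41 ± 0.12 at 48 h, and TFB2M and TWNK, its partners in transcription and replication of that DNA, by 1.31 and 1.35. The transcript of NRF1, a factor that binds promoters of respiratory genes, rose by 0.69 at 24 h and by 0.84 at 48 h.

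**Figure D4:**
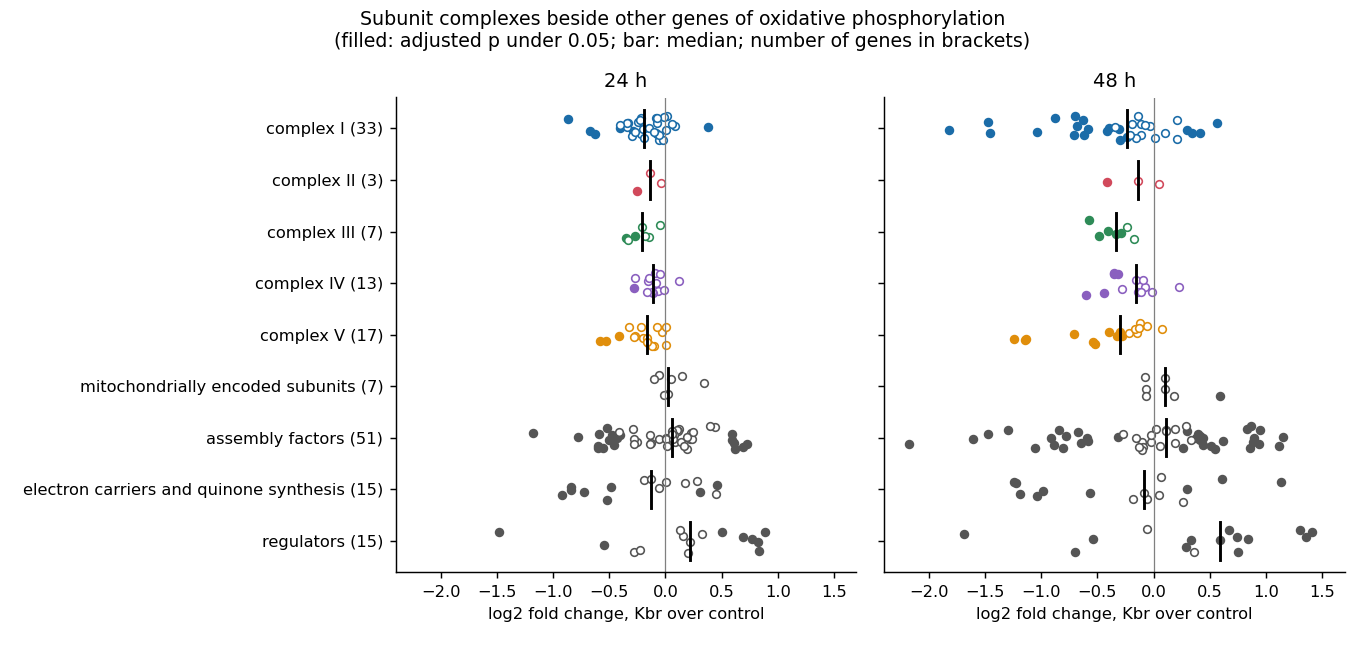
Log2 fold change of Kbr over control at 24 h (left) and 48 h (right) for the members by complex and for the other gene lists of the pathway. Each point is a gene, filled where the adjusted p was under 0.05, and the black bar is the median. The 5 complexes have medians below 0 at both times, whereas the medians of the mitochondrially encoded subunits, the assembly factors and the regulators lie above 0.

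The start sites of the members were examined for the letters bound by factors known for respiratory genes, since many members moved together. RefSeq start windows (GRCh38.p14, 250 bases before to 50 after the start) were found for 63 of the 73 members, and a gene counted if any of its windows held the motif on either strand. The letters GCGCATGCG, bound by NRF1, stood in 11 of 63 members (17.5%), in 4.54% of 8774 tested genes and in 1.92% of all 35116 windows. The YY1 letters AAGATGGCG stood in 12.7% of members, 5.08% of tested genes and 1.75% of all windows, and the GABP letters CCGGAAG in 30.2%, 23.7% and 10.3%. The SP1 letters GGGCGG stood in 65.1% of members, 78.5% of tested genes and 45.0% of all windows, and the antioxidant response letters TGACNNNGC in 19.0%, 19.9% and 13.3%. The NRF1 core TGCGCA, which can overlap the longer form, stood in 30.2%, 16.9% and 8.24%. The letters of the ERR site, TGACCTTGA, stood in 1 member. Of members with a window, GCGCATGCG was found in 5 of 34 called lower at 48 h, 1 of 3 called higher and 5 of 26 not called.

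The first 150 bases before the start are shown for 3 members with these NRF1 letters (NDUFS7 and ATP5F1C, lower at 48 h, and SDHD, not called) and for 3 with the largest falls and without them (NDUFA7, NDUFB1 and ATP5MC1). They are given 5′ to 3′ in the direction of the gene, from RefSeq, GRCh38.p14, at chr19:1383757-1383906 (plus strand) for NDUFS7, chr10:7788027-7788176 (plus) for ATP5F1C, chr11:112086723-112086872 (plus) for SDHD, chr19:8321376-8321525 (minus) for NDUFA7, chr14:92121707-92121856 (minus) for NDUFB1 and chr17:48892637-48892786 (plus) for ATP5MC1. Capitals mark the NRF1, GABP, YY1 and ERR letters named above, on either strand.
NDUFS7: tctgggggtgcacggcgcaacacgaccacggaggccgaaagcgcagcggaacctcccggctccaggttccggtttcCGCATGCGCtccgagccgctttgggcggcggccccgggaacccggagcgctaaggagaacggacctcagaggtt
ATP5F1C: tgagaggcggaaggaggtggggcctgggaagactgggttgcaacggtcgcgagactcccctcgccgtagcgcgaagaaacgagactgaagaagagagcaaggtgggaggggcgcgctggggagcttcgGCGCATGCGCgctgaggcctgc
SDHD: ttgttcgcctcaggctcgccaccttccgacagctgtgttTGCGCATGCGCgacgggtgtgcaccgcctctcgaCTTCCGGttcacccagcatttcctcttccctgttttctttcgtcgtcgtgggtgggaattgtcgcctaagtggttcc
NDUFA7: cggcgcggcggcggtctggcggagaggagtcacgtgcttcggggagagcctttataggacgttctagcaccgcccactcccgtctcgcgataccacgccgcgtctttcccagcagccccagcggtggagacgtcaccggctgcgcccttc
NDUFB1: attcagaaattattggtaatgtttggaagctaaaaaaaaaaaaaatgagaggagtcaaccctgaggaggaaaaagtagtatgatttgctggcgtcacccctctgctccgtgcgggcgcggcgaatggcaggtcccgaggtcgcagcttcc
ATP5MC1: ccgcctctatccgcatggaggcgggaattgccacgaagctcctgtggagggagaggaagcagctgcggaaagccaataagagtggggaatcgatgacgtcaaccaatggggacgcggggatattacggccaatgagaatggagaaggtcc
The NRF1 letters lie within 150 bases of the start in the windows of NDUFS7, ATP5F1C and SDHD, and the stretches of the other 3 hold no capitals. The window of NDUFA7 holds the YY1 letters outside the stretch shown. A match is a run of letters only, and binding was not measured. The transcripts behind these stretches include members that fell most (NDUFS7 with the letters, NDUFA7, NDUFB1 and ATP5MC1 without) and one that was not called (SDHD with them).

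Probe sets of the same gene did not always move together. Of the 73 members, 27 had more than 1 probe set over the level, and estimates of both signs occurred in 12 of these at 24 h and in 11 at 48 h. Tested among all probe sets, calls in opposite directions occurred in 0 members at 24 h and in 3 at 48 h, namely NDUFB2, NDUFC1 and UQCR11. For NDUFB2 the 3 probe sets gave -0.62, -0.46 and 0.47 at 48 h (limma adjusted p = 0.00176, 0.00786 and 0.0232). For SDHC all 6 probe sets gave estimates below 0 at 48 h, 5 of them called, down to -1.67. Both probe sets of UQCRC2 were called, at -0.58 and -0.57. In COX4I1, 2 probe sets were not called, at -0.14 and -0.17, and the other rose by 2.13 at 48 h (adjusted p = 1.48e-06), and in ATP5F1E a second probe set rose by 1.09 (adjusted p = 5.05e-05). Which part of each transcript the probes read was not analysed here.

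**Figure D5:**
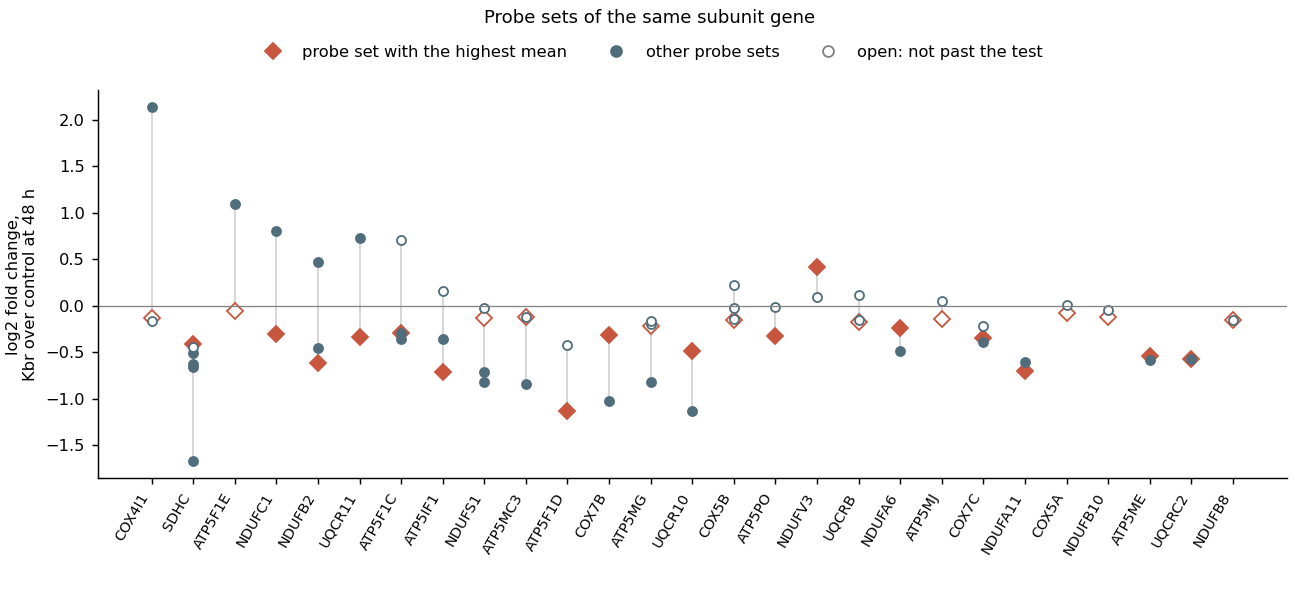
Log2 fold change of Kbr over control at 48 h for every probe set of the 27 members with several, ordered by the spread within a gene. Diamonds mark the probe set with the highest mean, which stands for the gene elsewhere, and open symbols did not pass the test. The widest spread is that of COX4I1, from -0.17 to 2.13.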

How the data were processed

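RNA of 12 HK-2 cultures was measured on 1-colour Affymetrix arrays with 54675 probe sets. The values are log2 GCRMA values made by the authors, per the submitters' processing notes, and were used as deposited. Probe sets were named from GEO's platform annotation, those that name 1 gene were kept, the one with the highest mean stood for the gene, and the 10574 genes that exceeded 4 (log2) on 3 or more arrays were tested. limma 3.58.1 (R 4.3.3) was fitted to all 4 groups at once, without a replicate block, with Benjamini-Hochberg adjustment over those genes and 0.05 as threshold. Python 3.11.15 with pandas 2.3.3 was used for the tables, and matplotlib 3.10.9 for the figures. The number of arrays limits the precision. The p-values of the fit without the block set each difference against the spread between replicate cultures of a group. That spread includes what arrays of the same replicate number share.

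The labels number the replicates 1 to 3 in each group. Deviations from group means correlated at 0.232 to 0.633 in all 18 pairs of arrays with the same number, and at -0.378 to -0.004 in the 36 with different numbers, so the numbers pair the arrays, and the blocked fit is given where it changes a call. The members and the gene lists were chosen with earlier results of these data known. Full values are given for the 3 members per complex that changed most at 24 h and at 48 h, those called taking precedence, and for the 3 with the largest interaction estimate and the 3 with the largest change between control times, 18 members in all. Other members given in full, such as NDUFAB1, NDUFV1, NDUFV3, NDUFS1 and ATP5MC3, were picked with their values in view. The fit was tested on simulated data. Alternatives were the level filter, the threshold, the choice of probe set, normalization, the prior, array weights, the samples in the fit, the block, and leaving out each array. Protein sequences were not used here.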

Additional observations from a re-analysis of the deposited data

Results flagged for a closer look

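For 5 of the genes named above the Kbr effect differed between 24 h and 48 h in limma's interaction test, in each case with a larger fall at 48 h. Among all genes 3.49% were called lower in the same test, a share near that of the members. Each of the 3 member calls was lost in some fit that left out 1 array. Among the members, the log2 fold change at 48 h minus that at 24 h was -1.19 for NDUFS7, -0.79 for NDUFB1 and -0.73 for ATP5MC2. Among the assembly factors it was -0.997 for DMAC2L and -0.82 for SURF1. With 3 arrays in each group, single values were not tested for outlying arrays.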

How the results depend on the processing

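Shares of all genes under the same setting stand in brackets where they are given, and those for the replicate block stand with its counts above. At an adjusted p under 0.01, 3 members were lower (10.8%) and 0 higher (6.47%) at 24 h, 22 lower (25.7%) and 2 higher (20.4%) at 48 h, 0 changed between the times in the interaction, and 4 were lower (3.53%) in Kbr 48 h than in Kbr 24 h cultures. With the replicate block, 25 members were lower at 24 h, 7 higher at 48 h, 9 changed downward between the times, 3 were higher and 3 lower in control 48 h than in control 24 h cultures, and 15 were lower and 2 higher in Kbr 48 h than in Kbr 24 h cultures. The block ended no call. With array weights, 22 were lower at 24 h (25%), 8 changed downward (8.12%) and 1 upward (8.68%) between the times, and 26 were lower (21.9%) and 2 higher (18.8%) in Kbr 48 h than in Kbr 24 h cultures. A trended robust prior gave 20 lower at 24 h (20.3%).

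With the mean of all probe sets, 8 were lower at 24 h (18.4%) and 7 higher at 48 h (29.3%), and the complex I median at 24 h was -0.081. With each probe set on its own, 8 were lower at 24 h, and the complex II medians were -0.24 at 24 h and -0.47 at 48 h. In these complex II medians SDHC counted with 6 probe sets, and SDHA and SDHD with 1 each. With unsuffixed probe sets, 7 of 62 were lower (19.2%) and 3 higher (12.6%) at 24 h, 0 changed downward (3.81%) and 1 upward (1.81%) between the times, 3 were lower (9.99%) in Kbr 48 h than in Kbr 24 h cultures, the complex II median was -0.26 at 24 h, and the complex V medians were -0.10 at 24 h and -0.13 at 48 h. In the fit of Kbr 48 h and Kbr 24 h arrays alone, 4 were lower (5.86%). Quantile normalization gave a complex II median of -0.19 at 48 h. For control 48 h against control 24 h cultures, 1 member was higher without the level filter, with the mean of probe sets, quantile normalization, an offset of 32 or the trended prior, and 1 was lower without the filter, with the offset or the trended prior. For Kbr 48 h against Kbr 24 h cultures, 1 was higher without the filter, with the mean of probe sets or with unsuffixed ones.

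Among members called in either fit, the sign turned with unsuffixed probe sets for ATP5F1C (0.70), ATP5IF1 (0.16), COX4I1 (2.13) and UQCR11 (0.73) at 48 h, for COX4I1 (0.94) and UQCRB (0.47) at 24 h, and for the change of COX4I1 between the times (1.20). In the same sense it turned with the mean of probe sets for ATP5F1E (0.52), COX4I1 (0.46), NDUFC1 (0.25) and UQCR11 (0.19) at 48 h. Called or not, the sign turned for 8 of 62 members at each time with unsuffixed probe sets, and for 9 of 73 at 24 h and 5 at 48 h with the mean. The cause was not tested.

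Leaving out 1 array in turn gave 3 to 18 lower and 0 to 1 higher at 24 h, 27 to 41 lower and 3 to 5 higher at 48 h, 0 to 7 changed downward and 0 to 1 upward between the times, 0 to 1 higher between control times, and 4 to 21 lower and 0 to 1 higher between Kbr times. In the same fits 1398 to 2365 of all 10574 genes were called lower and 857 to 1515 higher at 24 h. At 48 h 3096 to 3449 of all genes were lower and 2503 to 2912 higher. Of 14 members called at 24 h, 3 (ATP5IF1, NDUFA7 and NDUFB1) were called in each such fit, and of 41 called at 48 h, 28 were. The fewest calls at 24 h came without Kbr 24 h replicate 1, and the fewest lower calls at 48 h without Kbr 48 h replicate 2 or control 48 h replicate 3. Medians at 24 h ranged from -0.21 to -0.15 for complex I, -0.19 to -0.10 for II, -0.24 to -0.20 for III, -0.16 to -0.089 for IV and -0.20 to -0.16 for V. At 48 h they ranged from -0.30 to -0.20, -0.16 to -0.11, -0.43 to -0.29, -0.22 to -0.13 and -0.36 to -0.26 in the same order.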
